A study of Sus scrofa with 16 samples.

Results

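The accessible chromatin regions (ACRs) of the newborn pig lung were compared with those of heart, kidney, skeletal muscle, spleen and liver from the same newborn stage. The members were the 77408 merged lung peaks on chromosomes 1 to 18, out of 80657 in the lung list, and the remainder lay on chromosome X (1858 peaks), chromosome Y (19) and unplaced scaffolds (1372). Each lung peak was put in a class from 0 to 5, the number of the 5 other newborn lists in which at least 1 bp of it was covered by a peak. A class 0 peak was therefore called in lung alone, and a class 5 peak was called in all 6 tissues. Only the presence of an interval was compared between lists, since peak heights of different libraries are not on 1 scale.

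All groups were untreated female crossbred domestic pigs without a genetic modification named in the labels. The newborn samples are labelled as taken on the day of birth, and the study's methods describe 2 full-sib Berkshire × Tibetan hybrid sisters aged 1 day, from which every newborn tissue was collected. The 2 replicates of each tissue are thus the same 2 sisters throughout. Chromatin was assayed by Omni-ATAC-seq, in which a transposase cuts open DNA and adds sequencing adaptors, on nuclei of frozen whole tissue. Lung here means a mixture of epithelial, stromal, vascular and blood cells, and in such bulk samples fewer cells of a type and less open chromatin per cell cannot be told apart.

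The gas-exchange surface of the lung is lined by flat alveolar type I cells and by alveolar type II cells, which make the surfactant that keeps air spaces from collapsing after birth. NKX2-1, a homeodomain transcription factor, specifies the lung epithelium and drives the surfactant protein genes SFTPB and SFTPC together with forkhead (FOXA) and other factors. Promoters of broadly used genes are open in most tissues, whereas distal elements such as enhancers differ more between cell types.

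Reference sequences of the peaks on which the results turn are printed from the RefSeq copy of Sscrofa11.1, plus strand, 5′ to 3′, with every match to the 17 searched motifs in capitals and without annotated exon bases. The first 3 are the strongest class 0 promoter peaks of the lung markers, at chr7:63488152-63488256 for NKX2-1, chr14:6440181-6440308 for SFTPC and chr3:59101467-59101667 for SFTPB. The NKX2-1 stretch lies in the intron of its longer transcripts and ends at the base before another annotated start, and the SFTPC stretch ends at the base before its annotated start. Capitals in the SFTPB stretch mark the ETS letters CAGGAAG, and the other stretches held none of the searched letters.
NKX2-1: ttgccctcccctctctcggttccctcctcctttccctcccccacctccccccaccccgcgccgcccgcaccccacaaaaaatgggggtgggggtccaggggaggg
SFTPC: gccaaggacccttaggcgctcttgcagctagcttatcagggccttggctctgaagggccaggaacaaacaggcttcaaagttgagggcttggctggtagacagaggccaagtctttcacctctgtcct
SFTPB: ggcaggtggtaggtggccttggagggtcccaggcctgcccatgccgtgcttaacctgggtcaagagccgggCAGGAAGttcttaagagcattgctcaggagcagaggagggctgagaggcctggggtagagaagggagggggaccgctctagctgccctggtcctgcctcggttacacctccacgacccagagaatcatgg

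The next set is the strongest class 0 promoter peak (ABCC5, chr13:121932857-121933057) and the 3 strongest class 0 peaks with the NKX2 letters CACTTGA on either strand, named for the nearest gene. These are chr14:25746214-25746414 in an intron of GLT1D1, chr13:49675092-49675292 in an intron of FAM19A1 and chr7:28267468-28267668 between genes, nearest to PRIM2. This set was chosen after the values were seen. Capitals in the ABCC5 window mark a pair of overlapping GATA matches (AGATAAG). Those of the GLT1D1 window mark a single NKX2 match on the minus strand. In the FAM19A1 window the NKX2 letters stood at bases 102 to 108 and overlapped an AP1 match, with a TEAD match (ACATTCC) overlapping a SOX match at bases 80 to 91 and a CEBP match at bases 37 to 44. The PRIM2 window held an NKX2 match at bases 19 to 25 and a CEBP match at bases 167 to 174.
ABCC5: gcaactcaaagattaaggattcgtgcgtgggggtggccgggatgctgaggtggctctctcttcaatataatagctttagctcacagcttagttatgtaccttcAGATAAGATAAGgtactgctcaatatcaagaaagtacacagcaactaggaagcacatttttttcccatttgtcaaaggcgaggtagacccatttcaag
GLT1D1: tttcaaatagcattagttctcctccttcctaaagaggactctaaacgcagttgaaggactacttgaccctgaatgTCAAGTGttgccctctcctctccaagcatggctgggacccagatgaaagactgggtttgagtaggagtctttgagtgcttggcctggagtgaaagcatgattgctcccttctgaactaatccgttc
FAM19A1: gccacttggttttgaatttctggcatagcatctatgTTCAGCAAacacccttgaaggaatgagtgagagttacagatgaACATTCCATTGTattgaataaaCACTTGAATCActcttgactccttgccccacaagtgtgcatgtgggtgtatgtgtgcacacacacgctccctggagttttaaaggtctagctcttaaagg
PRIM2: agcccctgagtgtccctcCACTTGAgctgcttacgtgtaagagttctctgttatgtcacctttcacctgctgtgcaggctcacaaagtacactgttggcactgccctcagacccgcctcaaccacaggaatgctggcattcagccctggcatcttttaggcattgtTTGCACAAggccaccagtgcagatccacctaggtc

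The 2 strongest class 5 peaks are shown because of what their sequence resembles, a check added after the values were seen. The first, named for SPOCK3, lies in an intron of that gene at chr14:21808481-21808681, and the other, nearest to LOC100737110, is intergenic at chr9:4701010-4701210. Capitals mark an NFY match in the first and an SP match in the second. Of the 171 stretches of 31 bases in each window, 31 in the first and 51 in the second also occurred in the 16613 bp mitochondrial genome of the same assembly. The −log10 p of these peaks reached 1718 and 1508 in the weaker lung replicate. Over all class 5 peaks only 8 of 19909 held such a stretch, as did 5 of the 16895 class 0 peaks, but 7 of the 20 strongest lung peaks did. Mitochondrial similarity touched the top of the ranking and few of the members, and its part in those peaks was not tested.
SPOCK3: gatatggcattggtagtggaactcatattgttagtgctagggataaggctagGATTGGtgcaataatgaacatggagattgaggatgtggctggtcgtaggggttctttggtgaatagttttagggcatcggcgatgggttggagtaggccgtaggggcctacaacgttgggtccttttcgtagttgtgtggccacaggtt
LOC100737110: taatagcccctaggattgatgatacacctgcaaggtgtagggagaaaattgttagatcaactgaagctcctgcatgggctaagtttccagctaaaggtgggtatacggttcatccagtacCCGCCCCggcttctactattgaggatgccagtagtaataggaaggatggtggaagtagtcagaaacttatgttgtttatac

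Each list merged 2 libraries, so no replicate error exists between the lists and no test between tissues was possible. Shares are given with Wilson 95% intervals, which cover counting error only, and with their spread over the 18 autosomes, which are blocks of 1 genome and not replicates. The files hold no read numbers, and no value was adjusted for sequencing depth. The study lists reads for each library. By its informative reads, those left after filtering and deduplication, both lung libraries were the deepest of the newborn samples. By mapped reads they were not. The part of depth in the classes was not tested. A peak missing from a list was not called there, and its absence was not measured. The −log10 p that peak calling gave to each lung library was higher in replicate 2 for 89.7% of the lung peaks. The other lists held between 54830 (muscle) and 128184 (kidney) peaks on chromosomes 1 to 18, which bears on every class below.

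Lung peaks gathered at both ends of the scale. Class 0 held 16895 peaks, or 21.8% (21.5% to 22.1%), and class 5 held 19909, or 25.7% (25.4% to 26.0%). Between them, class 1 held 11173 peaks (14.4%), class 2 held 10266 (13.3%), class 3 held 9384 (12.1%) and class 4 held 9781 (12.6%). Over the autosomes the class 0 share was 22.2% ± 3.72 (SD, n = 18 autosomes) with a range from 14.5% to 28.5%, and the class 5 share was 25.03% ± 4.62 with a range from 19.1% to 35.4%. Chromosome X, which was left out of the classes, gave close shares, with 22.3% (20.4% to 24.2%) of its lung peaks in class 0 and 28.8% (26.8% to 30.9%) in class 5. In terms of sequence covered, class 0 took up 7.84 Mb and class 5 took up 19.2 Mb of the 48.0 Mb in lung peaks.

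The tissue with which lung shared most peaks was kidney. Of all lung peaks, 61.8% overlapped the kidney list, 59.4% the liver list, 49.9% the spleen list, 49.5% the heart list and 35.9% the muscle list. This order followed the length of the other lists, which was longest for kidney (128184 peaks) and liver (115504) and shortest for muscle, and the part of list length in it was not tested. Peaks shared with a single other tissue followed the same order, with 4300 class 1 peaks shared with kidney, 3114 with liver, 1551 with spleen, 1462 with heart and 746 with muscle. Of the class 4 peaks, 6446 (65.9%) were missing from the muscle list alone. The most frequent pair of partners was kidney and liver, with 3808 peaks, followed by spleen and liver with 1663.

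**Figure D1:**
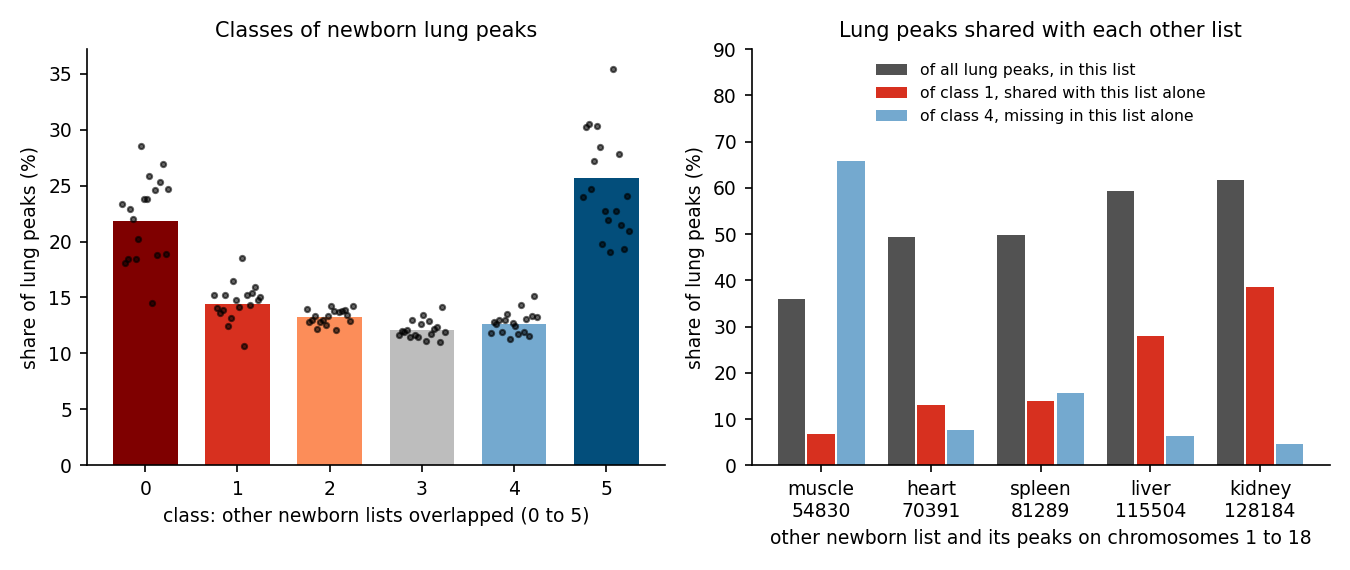
Left, share of the 77408 lung peaks (%) in each class, with bars for all autosomes together and points for the 18 autosomes. Right, for each other newborn list in order of its number of peaks, the share of all lung peaks found in it, the share of class 1 shared with it alone and the share of class 4 missing from it alone, where muscle stands out at 65.9%.

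Set against its own 5 partners in the same way, each other tissue gave a different balance. The share of peaks called in 1 tissue alone was 17.5% in heart, 22.1% in muscle, 24.3% in spleen, 28.0% in liver and 34.6% in kidney, so that the 21.8% of lung fell between heart and muscle. The share called in all 6 tissues ran from 15.6% in kidney to 37.3% in muscle. When every list was cut to its strongest 54830 peaks, class 0 of lung held 15468 peaks and class 5 held 10075, and when all 6 lists kept only peaks at or under an IDR of 0.05 they held 3817 and 2998. With the full lists, class 0 held 20930 and class 5 held 15791 peaks when at least 50% of the lung peak had to be covered, and 19198 and 18642 when its summit had to lie in the other peak. Class 5 was thus the larger class with the full lists under the 1 bp rule and the smaller one under these 4 settings. With the IDR filter on the lung list alone it was again the larger, with 9764 peaks against 1885 in class 0.

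Within the lung libraries, class 5 peaks were wider and stronger, whereas classes 0 to 3 were much alike. Median width was 410 bp in class 0, 420 bp in class 1, 440 bp in class 3, 529 bp in class 4 and 958 bp in class 5. The median −log10 p of replicate 1 was 5.33 in class 0 and 12.6 in class 5, and that of replicate 2 was 15.9 and 67.9. The quartiles in replicate 1 were 4.38 and 7.33 for class 0, and 5.93 and 35.5 for class 5. Reproducibility across the 2 sisters showed the same split. An irreproducible discovery rate (IDR) of 0.05 or lower was reached by 11.2% of class 0 (10.7% to 11.6%) and 49.0% of class 5 (48.3% to 49.7%), with 9.21% in class 3 as the lowest value. In the weakest quartile of lung peaks 29.5% were of class 0 and 12.4% of class 5, and in the strongest quartile 11.4% and 56.8%. The part of peak strength and width in the classes was not tested.

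Class 0 peaks were mostly distal, whereas the promoter was the most frequent feature of class 5. A promoter, taken from 2.2 kb upstream to 500 bp downstream of a protein-coding transcription start site (TSS), was overlapped by 3.94% of class 0 (3.65% to 4.24%), 6.54% of class 1, 10.3% of class 2, 12.4% of class 3, 17.5% of class 4 and 53.3% of class 5 (52.6% to 54.0%). The promoter share was higher in class 5 than in class 0 on 18 of 18 autosomes, with values from 2.29% to 9.30% in class 0 and from 46.4% to 58.0% in class 5. Introns held 47.3% of class 0 against 17.5% of class 5, and intergenic sequence held 41.0% against 21.8%. Exons took a steadier share, 7.51% in class 0 and 7.12% in class 5.

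The median distance from the lung summit to the nearest TSS fell class by class, from 39.4 kb in class 0 through 31.5, 26.3, 23.2 and 18.6 kb to 0.804 kb in class 5. The quartiles of class 0 were 13.7 and 114 kb. Within 1 kb of a TSS lay 2.82% of class 0 and 51.4% of class 5, and beyond 100 kb lay 27.7% (27.1% to 28.4%) and 6.15% (5.82% to 6.49%). Read the other way, 67.6% of the 15128 lung peaks within 1 kb of a TSS were of class 5 and 3.15% of class 0, while of the 13126 peaks beyond 100 kb 9.32% were of class 5 and 35.7% of class 0. The same gap was present in the peaks called in 1 other tissue alone, whose median distance ran from 29.9 kb in liver to 48.1 kb in kidney and whose promoter share ran from 2.80% in heart to 4.56% in spleen.

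**Figure D2:**
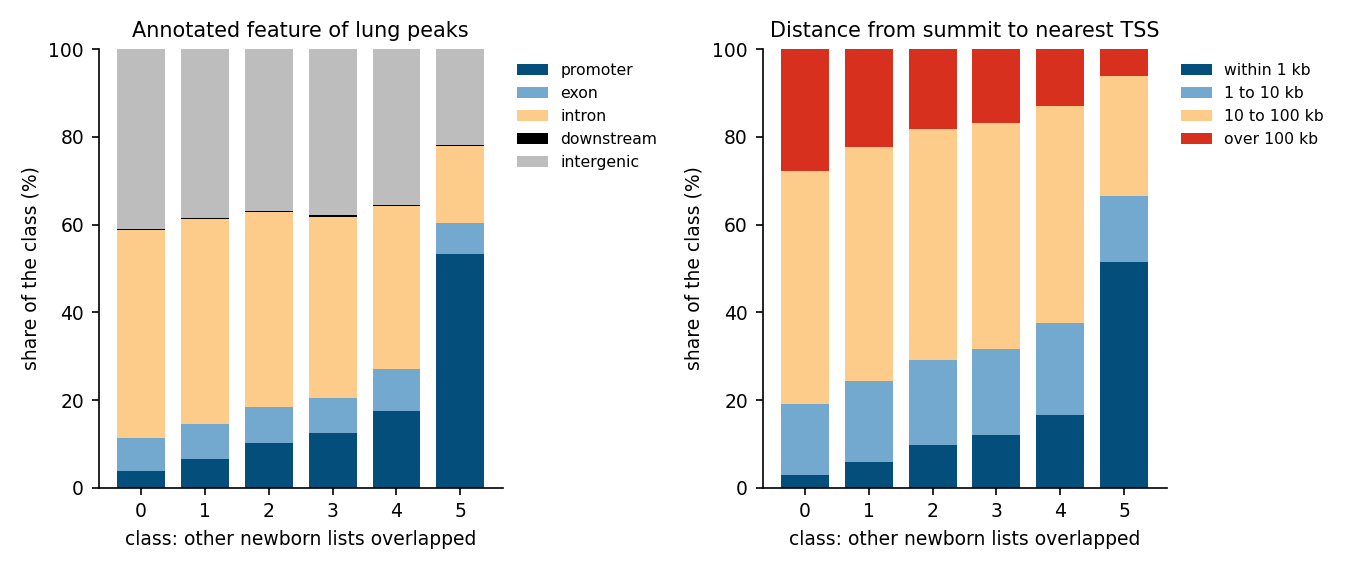
Share of each class of lung peaks (%) by annotated feature (left) and by distance from the summit to the nearest protein-coding TSS (right). The promoter share rises from 3.94% in class 0 to 53.3% in class 5, and the share beyond 100 kb falls from 27.7% to 6.15%.

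Base composition followed the classes as well. In the window of 100 bp on each side of the summit, the median GC content was 47.3% in class 0 and 64.2% in class 5, and the median ratio of observed to expected CpG was 0.230 and 0.700. On average 16.3% of the bases of a class 0 window were marked as repeats in the assembly against 8.30% in class 5, and windows that were mostly repeat made up 9.20% of class 0 and 0.834% of class 5.

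The 3 markers of lung epithelium each had a promoter peak in lung that no other newborn list held. SFTPB, which encodes surfactant protein B, had its strongest lung peak at chr3:59100946-59102211, with the summit 373 bp upstream of the TSS. Its −log10 p was 24.7 in replicate 1 and 61.3 in replicate 2, with an IDR of 0.0161. Of the 5 lung peaks nearest to SFTPB, 4 were of class 0, and the last was shared with liver and lay 24.5 kb downstream. SFTPC, which encodes surfactant protein C, had a single lung peak, at chr14:6439868-6440554 with the summit 28 bp upstream of the TSS. That peak reached 9.99 in replicate 1 and 33.0 in replicate 2. With its IDR at 0.0877 it missed the 0.05 mark for reproducibility.

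NKX2-1 had 11 lung peaks, of which 5 were of class 0, 4 of class 1, 1 of class 2 and 1 of class 3. Its promoter held 2 of them. The class 0 promoter peak at chr7:63487690-63489000 had a −log10 p of 4.51 in replicate 1 and 50.3 in replicate 2, which left it at an IDR of 0.556. The more reproducible promoter peak, at chr7:63486825-63487425 with an IDR of 0.0192, was also called in kidney and so fell in class 1. The peaks 57.1 and 60.2 kb downstream of the TSS were shared with liver alone, and the latter had the highest value of the locus in replicate 2, 96.6, against 4.98 in replicate 1. Replicate 2 was higher at all 11 peaks of this locus, as it was at 89.7% of all lung peaks, so this direction was not particular to NKX2-1.

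**Figure D3:**
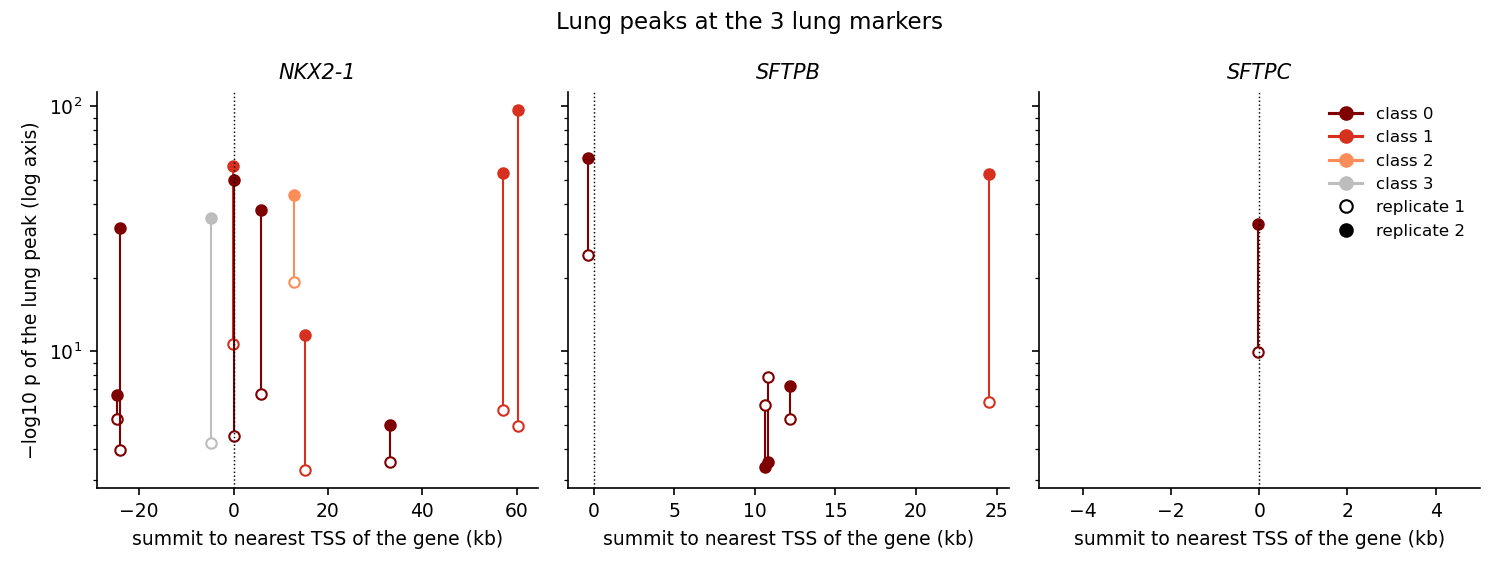
Lung peaks at NKX2-1, SFTPB and SFTPC by the distance of the summit from the gene's nearest TSS (kb), with the −log10 p of each lung replicate on a log axis (open points, replicate 1; filled points, replicate 2; lines join both values of a peak) and the class in colour. Each gene has a class 0 peak at its TSS. Replicate 2 is the higher one at all 11 NKX2-1 peaks, as it is at 89.7% of all lung peaks.

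Over all genes, a lung promoter peak of any class was found at 71.3% of the 18725 protein-coding genes on chromosomes 1 to 18, a class 5 promoter peak at 58.1% and a class 0 promoter peak at 3.41%, or 639 genes. Most of the latter were second promoter peaks, since 447 of the 639 genes also had a lung promoter peak of a higher class and 192 had class 0 promoter peaks alone. A promoter peak in lung and in no other newborn list was found at 131 genes, and in all 6 lists at 10917. Of the 665 class 0 promoter peaks, 73 reached an IDR of 0.05 or lower.

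The strongest class 0 promoter peak belonged to ABCC5, an export pump of the ABC transporter family, with a −log10 p of 35.7 and 119 in the 2 replicates. The next in rank were those of LOC100156470 (34.1 in the weaker replicate), GAS7, a cytoskeletal adaptor (31.5), LMO7, a junction-associated protein (31.2), EDN3, the vasoactive peptide endothelin 3 (29.6), LOC100523909 (29.4), the nuclear receptor coactivator NCOA2 (26.6), C6H1orf87 (26.0), ANKRD44 (25.7) and DIP2C (24.8). All 10 had an IDR of 0.0108 or lower. The summit of the EDN3 peak lay 54 bp downstream of the TSS, and that of C6H1orf87 lay 45 bp upstream. The summits of ABCC5 and ANKRD44 lay 2624 and 2498 bp upstream, so that only the edge of these peaks reached the promoter interval. Those of LMO7 and GAS7 lay 899 and 603 bp downstream, past the 500 bp limit of the interval at their nearest TSS. ABCC5 also had a class 5 lung promoter peak, and its promoter held a peak in all 6 newborn lists. The ranks above are values of the lung list alone, and each peak was chosen by them.

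For gene groups, every lung peak was assigned to the protein-coding gene with the nearest TSS, by which 35.8% of the genes had at least 1 class 0 peak. The lists of genes held 283 symbols, of which 272 were found on chromosomes 1 to 18. Against the 21.8% of class 0 among all lung peaks, the groups are described by their counts alone, without adjustment for the distance of a gene to its neighbours.

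All 10 genes of the alveolar type II and surfactant group had a lung promoter peak, against 4 in heart, 4 in kidney, 3 in muscle, 5 in spleen and 5 in liver. Over all protein-coding genes, a promoter peak was found at 71.3% in lung, 68.7% in heart, 75.8% in kidney, 62.2% in muscle, 69.5% in spleen and 74.4% in liver. Of the 67 lung peaks assigned to the alveolar type II and surfactant group, 24 (35.8%) were of class 0 and 6 (8.96%) of class 5. SFTPA1, SFTPB and SFTPC had a promoter peak in lung alone. The SFTPA1 peak lay 89 bp upstream of the TSS and reached 4.65 in replicate 1 and 27.2 in replicate 2 (IDR 0.494). The SFTPD promoter, of another surfactant protein, was shared with liver alone, and those of LAMP3, a lamellar body marker, and NAPSA, a protease that processes surfactant proteins, with spleen alone. The promoters of ABCA3, the lipid transporter of lamellar bodies, of LPCAT1, which makes surfactant phosphatidylcholine, and of the FGF-responsive factor ETV5 were open in all 6 tissues.

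Among the 10 genes of the alveolar type I group, 68 of 145 assigned peaks (46.9%) were of class 0 and 15 (10.3%) of class 5. All 10 had a lung promoter peak, against 71.3% of all protein-coding genes. The count was 7 in heart, 9 in kidney, 7 in muscle, 6 in spleen and 9 in liver, so these promoters were less limited to lung than those of type II. AGER, a receptor abundant on type I cells, had 2 promoter peaks, both of class 0 and in no other list, and the one at its TSS reached 11.9 in replicate 1 and 51.1 in replicate 2 (IDR 0.0189). RTKN2 had 19 class 0 peaks of 23, and SEMA3E 19 of 28. HOPX, a homeodomain-like cofactor, had 8 of 19, with 1 weak class 0 peak (IDR 0.371) among promoter peaks that reached class 5. AQP5, a water channel, had 2 promoter peaks, both also called in 2 other tissues. The lung group thus joined promoters seen in lung alone with promoters open in every tissue and class 0 peaks around them.

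Of the 166 peaks assigned to the 12 lung transcription factors, 77 (46.4%) were of class 0 and 5 (3.01%) of class 5. A promoter peak was found at 11 of the 12 in lung, against 71.3% of all protein-coding genes. The count was also 11 in kidney, and it was 9 in heart, 5 in muscle, 8 in spleen and 9 in liver. FOXP2, a forkhead factor of the distal lung, had the most class 0 peaks of any gene, 31 of 45, among them a promoter peak that reached 18.9 in replicate 1 and 75.03 in replicate 2 (IDR 0.00723). SOX2, a factor of the conducting airways, had 13 of 17, and GATA6 had 9 of 30. TBX4, a mesenchymal factor, had no lung promoter peak and had 1 class 0 peak of 3. TBX5 had 2 promoter peaks shared with 1 other tissue and 1 shared with 2, and the promoters of SOX2, GATA6 and FOXF1 held class 5 peaks.

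Groups of the airway gave a mixed picture. Of the 10 secretory and basal genes, 7 had a lung promoter peak, near the 71.3% of all protein-coding genes. Class 0 made up 15 of the 47 peaks assigned to the group (31.9%). SCGB3A2, a secretoglobin of airway cells and a target of NKX2-1, had a promoter peak in lung alone, 132 bp upstream of the TSS, at 9.39 in replicate 1 and 53.0 in replicate 2 (IDR 0.0301). SCGB1A1, the club cell secretoglobin, had no lung promoter peak, and KRT5 and BPIFA1 had no lung peak in the promoter or assigned to them. TP63, the basal cell factor, had 9 class 0 peaks of 16. Class 5 promoter peaks were found at 7 of 10 ciliated cell genes, FOXJ1 among them, against 58.1% of all protein-coding genes. The ciliated cell group had 12 of 45 peaks (26.7%) in class 0. The neuroendocrine group had 9 of 20 (45.0%), of which INSM1 held 4. Only 1 of its 6 genes, UCHL1, had a lung promoter peak, where a class 5 peak lay, against 71.3% of all protein-coding genes. The count was 3 in heart, 4 in kidney, 1 in muscle, 2 in spleen and 2 in liver.

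Among stromal and vascular groups, mesenchyme lay above the 21.8% of all lung peaks and smooth muscle and pericyte genes far below it. The elastic fibre and endothelial groups were close to it. Lung mesenchyme had 23 of 76 peaks (30.3%) in class 0, including 5 of 13 at TCF21, 5 of 11 at WNT2 and 5 of 8 at MEOX2. The elastic fibre group had 13 of 68 (19.1%) and the endothelial group 31 of 155 (20%). Smooth muscle and pericyte genes had 2 of 42 (4.76%), with class 5 promoter peaks at 8 of 10, against 58.1% of all protein-coding genes. A lung promoter peak was found at 3 of 10 lymphocyte genes, against 2 in heart, 3 in kidney, 2 in muscle, 6 in liver and 10 in spleen. Lung was thus like heart, kidney and muscle. Over all protein-coding genes the share was 71.3% in lung and ran from 62.2% in muscle to 75.8% in kidney. CD3E, CD2 and CCR7 were among those with a promoter peak in spleen alone. Of the 47 peaks assigned to lymphocyte genes, 5 (10.6%) were of class 0. Myeloid genes had a promoter peak at 5 of 9 in lung, 3 in heart, 5 in kidney, 1 in muscle, 8 in liver and 9 in spleen, beside the same shares over all genes. Of their assigned peaks, 9 of 31 (29.0%) were of class 0, of which PPARG, a factor of alveolar macrophages among other cells, held 7. The erythroid group had 5 of 31 (16.1%). Blood left in the tissue was not measured.

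Signalling pathways of lung growth ranged on both sides of the background. Class 0 made up 31.5% of 143 peaks for WNT, 28.1% of 89 for hedgehog, 26.1% of 188 for BMP and TGF-beta, 25.5% of 200 for FGF, 20.5% of 112 for retinoic acid, 18.2% of 110 for Notch and 17.2% of 99 for Hippo. Among ligands and receptors, taken as examples, 5 of 18 peaks were of class 0 at the WNT ligand gene WNT7B. Class 0 held 11 of 33 at the FGF receptor gene FGFR2, 11 of 34 at the TGF-beta ligand gene TGFB2 and 15 of 57 at the receptor gene TGFBR2. These genes were not ranked within their groups, and the WNT group held 45 class 0 peaks in all. FGFR2 shared 16 of its peaks with 1 other tissue. Among feedback inhibitors, 16 of 43 peaks were of class 0 at SPRY2, 13 of 46 at SPRY1 and 8 of 15 at the hedgehog antagonist HHIP. FGF10, a mesenchymal ligand, had no promoter peak in any newborn list. The glucocorticoid response group, whose hormone matures the lung around birth, had 20 of 127 peaks (15.7%) in class 0. Its class 5 promoter peaks were at 9 of 9 genes, against 58.1% of all protein-coding genes. Of the fluid clearance group, which holds sodium channel, sodium pump and aquaporin genes, 29 of 105 (27.6%) were of class 0, with 14 of 48 at NEDD4L. A NEDD4L promoter peak of class 0 had an IDR of 0.0108. The sodium channel genes SCNN1B and SCNN1G had promoter peaks in lung, kidney and liver and in no other newborn list.

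Broadly used genes showed the contrast. Class 5 promoter peaks were found at 10 of 10 ribosomal protein genes and 10 of 10 proteasome genes, against 58.1% of all protein-coding genes. Of the peaks assigned to the ribosomal group, 51.7% were of class 5. Markers of other organs gave low and high values alike. Class 0 made up 1 of 18 peaks (5.56%) at kidney genes, 6 of 32 (18.8%) at cardiomyocyte genes and 17 of 39 (43.6%) at hepatocyte genes. Of the hepatocyte peaks of class 0, 8 were nearest to CPS1 and 4 to APOB, none lay in a promoter of the group, and ALB had no lung peak. The 15 peaks nearest to skeletal muscle genes were of class 1 or higher, although CACNA1S had a class 0 promoter peak whose nearest TSS was that of another gene. A high class 0 share by nearest TSS was therefore not limited to lung gene groups.

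**Figure D4:**
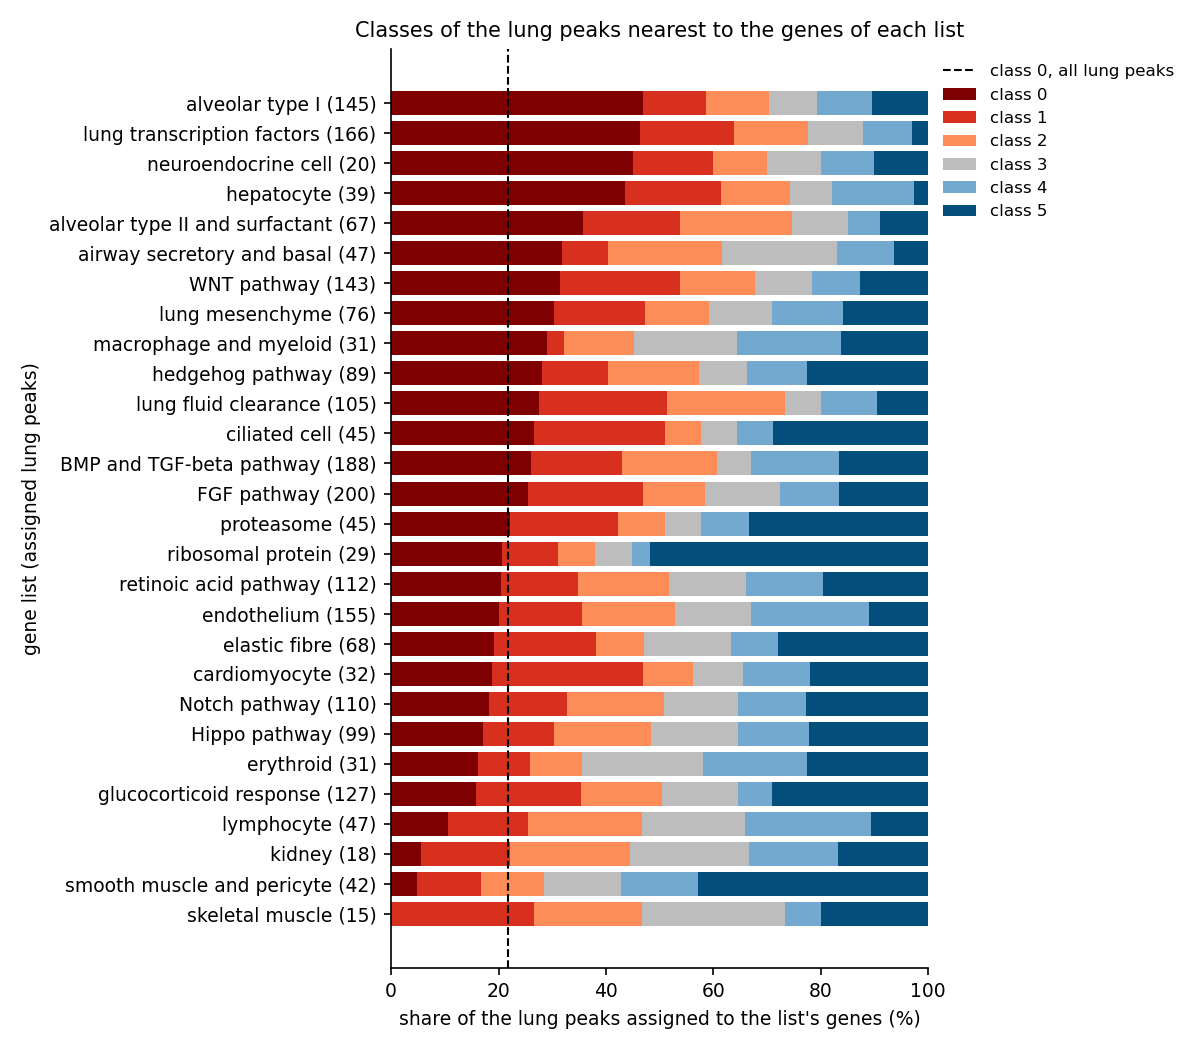
Classes of the lung peaks assigned by nearest TSS to the genes of 28 lists, as a share of the list's peaks (%), with the number of peaks in brackets and lists ordered by class 0. The dashed line is the 21.8% of class 0 among all lung peaks, and the top of the order holds alveolar type I genes (46.9%) and lung transcription factors (46.4%) but also hepatocyte genes (43.6%).

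Class 0 peaks were spread unevenly over genes, and the space around each gene in which a peak is nearest to it was not measured. The 6706 genes nearest to a class 0 peak included 878 with 5 or more, which together held 6695 of the 16895. After FOXP2, the largest numbers were 30 of 63 at MECOM, a zinc finger factor, 28 of 58 at CADM1, a cell adhesion molecule, 27 of 31 at KLF5, a factor of epithelial cells, 26 of 43 at TMTC2, 25 of 80 at ZNF608, 24 of 31 at C8H4orf22, 22 of 34 at the adhesion molecule ALCAM, 22 of 45 at the protocadherin PCDH7 and 22 of 56 at the polarity protein PARD3. KLF5 thus had the highest share of class 0 in this set, 87.1%. The largest numbers of class 5 peaks were at NFIA (16 of 53), ZFP36L1 (15 of 53), SH3PXD2A (13 of 27), ZFP36L2 (13 of 54), DUSP6 (12 of 38), NFIB (12 of 55), ETS1 (12 of 61), NTMT1 (11 of 20), RGS3 (11 of 24) and TBC1D1 (11 of 36). NFIA and NFIB are nuclear factor I genes, ZFP36L1 and ZFP36L2 encode proteins that promote mRNA decay, and DUSP6 encodes a phosphatase of ERK. These genes were chosen by their counts.

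The strongest class 0 peaks of all lay outside promoters. The first was an intergenic peak 98.0 kb upstream of MAX with a −log10 p of 70.2 and 140 in the 2 replicates. It was followed by peaks near SLC25A46 (68.7 in the weaker replicate), BCAT1 (64.1), LRRK1 (54.5), FAM189A2 (53.2), GLT1D1 (52.0), LAMA3 (51.2), NRP1 (50.4), FAM19A1 (49.8) and FTMT (48.7). LAMA3 encodes a chain of epithelial laminin and NRP1 a co-receptor for vascular growth factors and semaphorins, and their peaks lay 44.0 kb downstream in an intron and 38.9 kb upstream of the TSS. The peak near SLC25A46 was 63 bp wide, far under the class median of 410 bp.

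Motif letters were searched on both strands within 100 bp on each side of each summit, as consensus letters and with no model of binding, and a match is a description of the sequence only. The letters were CACTTGA for NKX2, TGTTTAC for FOXA, ACATTCC for TEAD, AGATAAG for GATA, TTGCNNAA for CEBP, TGANTCA for AP1, CCATTGT for SOX, CAGGAAG for ETS, CCGGAAG for the promoter form of ETS, GAGGAAGT for SPI1, CAGCTG for E-box factors, AGGTGTGA for TBX, GTTGCCAT for RFX, CTAAAAATA for MEF2, GGGGCGG for SP and CCAATC for NFY, and CTCF was searched by its core consensus. The ETS, promoter ETS and SPI1 letters share GGAAG, and the NKX2 and AP1 letters share TGA, so their matches can overlap. Of the 45636 windows of the same length around protein-coding TSSs, 1.12% held the NKX2 letters, 1.65% FOXA, 1.52% TEAD, 1.18% GATA, 5.37% CEBP, 3.56% AP1, 1.67% SOX and 7.38% ETS. The promoter form of ETS was held by 9.18%, SPI1 by 1.69%, E-box by 12.9%, TBX by 0.445%, RFX by 1.14%, MEF2 by 0.267%, SP by 31.9%, NFY by 10.5% and CTCF by 1.61%. Factors of promoters such as SP thus had the highest values there, along with the short E-box letters.

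Outside promoters, the NKX2 letters fell from 7.49% of class 0 (7.09% to 7.90%, 1215 of 16230 peaks) through 4.85%, 4.18%, 3.49% and 3.33% to 2.13% of class 5 (1.85% to 2.44%). Over all peaks, promoters included, the shares were 7.43% and 1.42%, and the class 0 share was above that of class 1, class 4 and class 5 on 18 of 18 autosomes. The same letters in reversed order, which keep the base composition, were found in 2.24% of class 0 and 1.66% of class 5 outside promoters. With promoters included, the share of the NKX2 letters also rose with the strength of the class 0 peak. It was 5.15% in the weakest quartile of lung peaks and 12.4% in the strongest, and in class 5 it was 1.38% and 1.21%. None of the marker windows above held these letters, and no match says only that they are not in these windows.

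The TEAD, FOXA, GATA and CEBP letters were also less frequent in class 5. TEAD was found in 8.43% of class 0 and 4.06% of class 5 outside promoters, FOXA in 6.71% and 3.30%, GATA in 5.06% and 1.56%, and CEBP in 13.3% and 7.76%. The intervals of these pairs did not overlap. In reversed order the letters of TEAD gave 2.30% and 1.41%, those of FOXA 3.59% and 1.79%, those of GATA 1.82% and 1.12%, and those of CEBP 2.21% in both classes. The FOXA fall was thus as steep with the letters reversed as with the motif. AP1 letters had overlapping intervals, with 9.06% of class 0 (8.63% to 9.51%) and 9.25% of class 5 (8.68% to 9.86%). Their reversed order was not level, with 5.98% of class 0 and 2.98% of class 5. The opposite direction was found for CTCF, with 1.23% of class 0 and 16.5% of class 5, for the promoter form of ETS, with 1.12% and 4.63%, and for SP, with 3.46% and 15.7%. In reversed order the CTCF letters gave 0.111% and 0.301%. Those of the promoter form of ETS gave 2.66% and 4.85%, above the motif in both classes and rising in the same direction. The SP letters in reversed order gave 4.23% and 17.3%. Both orders are a C within a run of G, so a reversed match can lie on an SP site. For SP the reversed letters are thus no control without the motif, and the part of GC content was not tested. CTCF rose at every step, through 2.68%, 5.15%, 8.40% and 11.15%. E-box letters were also more frequent in class 5 (13.7% of class 0 and 21.3% of class 5). So were ETS (8.63% and 13.4%), NFY (5.34% and 8.16%), SPI1 (1.68% and 2.34%) and MEF2 (0.382% and 0.6555%). SOX (3.01% and 1.945%), TBX (1.035% and 0.387%) and RFX (1.34% and 0.913%) were less frequent there.

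Peaks shared with a single other tissue differed by the partner. NKX2 letters were found in 6.77% of the class 1 peaks shared with heart (5.56% to 8.22%), 6.57% of those shared with spleen, 5.23% with muscle, 4.52% with kidney and 3.46% with liver (2.86% to 4.18%), outside promoters. FOXA and CEBP letters were most frequent in peaks shared with liver, at 10.1% and 19.04%, GATA in those shared with heart, at 7.13%, SPI1 in those shared with spleen, at 4.12%, and E-box letters in those shared with muscle, at 25.04%.

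The same search was run on the peaks called in 1 newborn tissue alone for each of the 6 tissues, again outside promoters. NKX2 letters were found in 7.49% of those of lung, 4.28% of heart (3.93% to 4.66%), 3.75% of spleen, 3.39% of muscle, 2.39% of kidney and 1.87% of liver (1.73% to 2.03%). TEAD letters gave 8.43% in lung (8.02% to 8.87%) and between 2.71% and 4.89% in the others. FOXA letters were close in lung (6.71%, 6.33% to 7.11%) and liver (6.32%, 6.05% to 6.59%), whose intervals overlapped, and lay between 2.12% and 2.45% elsewhere. GATA letters were more frequent in heart (7.47%) than in lung (5.06%), and liver (4.86%) was close to lung. MEF2 letters were found in 0.382% of lung and 2.93% of heart, E-box letters in 13.7% of lung and 30.3% of muscle, and SPI1 letters in 1.68% of lung and 6.17% of spleen. The intervals cover counting error only, so that these differences between lists have no replicate check.

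**Figure D5:**
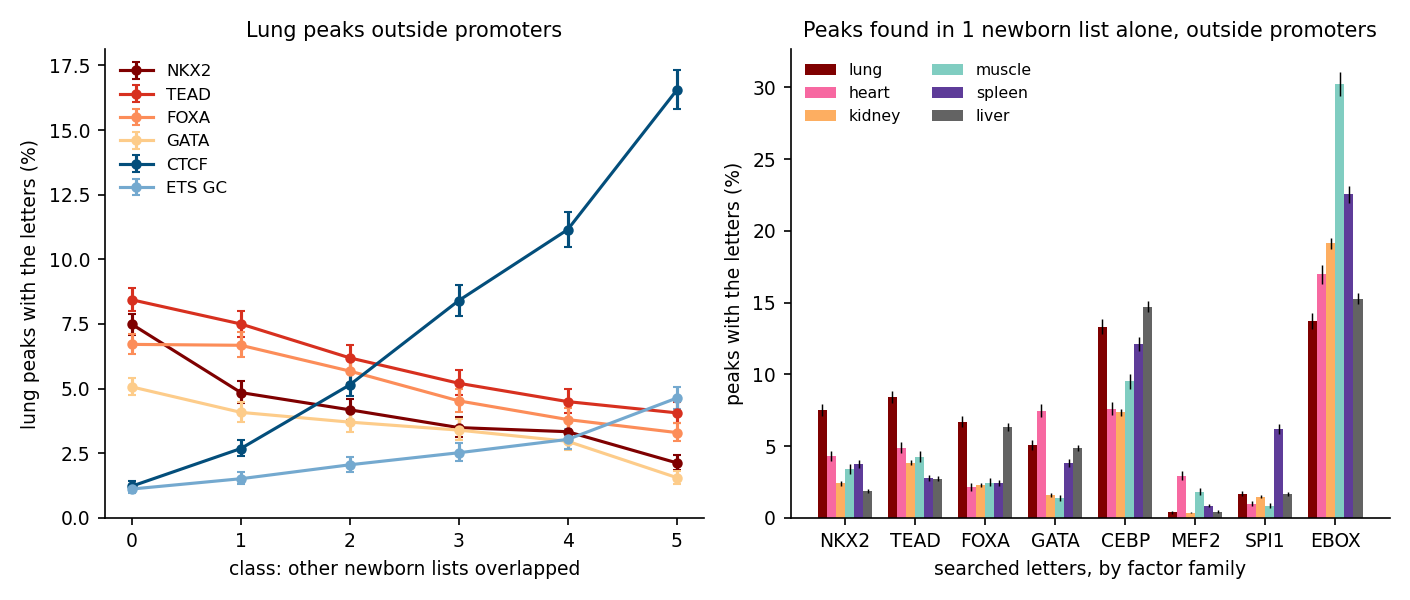
Left, share of lung peaks outside promoters (%) with the letters of 6 motifs within 100 bp of the summit, by class, with Wilson 95% intervals. Right, the same share (%) for peaks called in 1 newborn list alone, for each tissue and 8 motifs. NKX2 falls from 7.49% to 2.13% over the classes while CTCF rises from 1.23% to 16.5%, and lung has the highest NKX2 and TEAD shares of the 6 tissues.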

How the data were processed

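Omni-ATAC-seq was measured in 12 newborn libraries, 2 for each of 6 tissues, and groups were taken from the labels. According to the study's methods, the authors aligned reads to Sscrofa11.1 with Bowtie2, removed mitochondrial, duplicate and poorly mapped reads with SAMtools (1.3.1 in the submitters' processing notes), called peaks in each replicate with MACS2, whose version is not given in the sources used here, and matched replicates with IDR at default settings, so the lists were not filtered at an IDR of 0.05. The deposited score is a scaled IDR, capped at 1000, with 540 at an IDR of 0.05. The deposited −log10 p values, given per replicate and as the smaller of both, depend on depth and were used within the lung list only. The deposited signal and q-value columns hold a constant and were not used. Calling sets which intervals exist, so it bears on every class.

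Intervals were compared at 1 bp with Python 3.11.15, numpy 2.4.6 and pandas 2.3.3. Wilson intervals (95%) came from statsmodels 0.14.6 and figures from matplotlib 3.10.9. Genes and sequences were taken from RefSeq for the same assembly, beyond whose chromosome ends no peak lay. Features were given in the order promoter, exon, intron, downstream (300 bp) and intergenic, and each peak was assigned to the nearest protein-coding TSS. Class assignment, distances and motif search were checked on simulated data with known answers. No test between tissues and no set test was run, because each list merges 2 replicates. Genes named in the text are the markers, members of the gene lists, the 10 strongest class 0 promoter peaks with an IDR of 0.05 or lower, and the 10 genes with the most class 0 or class 5 peaks, while the strongest class 0 peaks of any position, the NKX2 examples and the comparison of peaks called in 1 tissue alone were added after values were seen. Members and lists were chosen with earlier results of these data known. Of the listed symbols, 5 had no match in the annotation (CALCA, NOTCH1, JAG2, CYP26B1 and MYH6) and 6 lay on another chromosome. Alternatives covered the overlap rule, IDR filters, equal list lengths, single replicates, each left-out list, the promoter interval, the TSS set, and the motif window and letters.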

Additional observations from a re-analysis of the deposited data

Results flagged for a closer look

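Class 0 was defined against newborn lists, and the liver lists of 28 and 180 days took no part in it. Of the 16895 class 0 lung peaks, 1849 (10.9%) overlapped a peak of 1 or both of these older livers, which drew attention as a signal outside the main comparison. The 28-day list held 1169 (6.92%) of them and the 180-day list 974 (5.76%). For class 1 the share in either list was 38.8% and for class 5 it was 98.8%. What part age, list length or the threshold of peak calling has in this overlap was not tested.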

How the results depend on the processing

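Of 111 values recomputed under the alternatives, 60 stayed within the 95% interval of the reported share or distance, or within 1.5 times the reported count, and 51 moved further. Class 5 had the higher promoter share in 9 of 9 settings, class 0 the longer median distance in 9 of 9, and class 0 the higher share of NKX2 letters in 9 of 9. The reversed letters, a control without the motif, were also more frequent in class 0, but less so (2.196% and 1.25%). The sizes moved more. NKX2 shares here are over all peaks, 7.43% and 1.42% as reported. With an IDR of 0.05 or lower in the lung list, classes 0 to 5 held 1885, 1113, 1031, 864, 1272 and 9764 peaks. The class 5 promoter share was then 67.6% and its median distance 0.137 kb, 73 genes had a class 0 promoter peak, and NKX2 shares were 13.4% in class 0 and 1.13% in class 5. With that filter in every list the classes held 3817, 2286, 2222, 2176, 2430 and 2998 peaks, promoter shares were 6.99% and 82.7%, distances 34.5 and 0.070 kb, genes 272 and NKX2 shares 11.11% and 1.03%. Class 5 was then smaller than class 0, as it was without a filter under the other overlap rules (15791 against 20930 peaks at 50% coverage, 18642 against 19198 by summit), so the order of their sizes depended on the rule and the filter. With equal list lengths class 5 held 10075 peaks, again under class 0, promoter shares were 5.28% and 58.4%, distances 36.5 and 0.346 kb, and the class 5 NKX2 share 1.26%.

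With at least 50% of the lung peak covered, promoter shares were 4.32% and 58.9%, distances 38.3 and 0.347 kb and the class 5 NKX2 share 1.22%, and with the summit as the rule, promoter shares were 4.35% and 54.5% and the class 5 distance 0.635 kb. The narrow promoter (1 kb upstream to 100 bp downstream) gave 2.09%, 50.2% and 348 genes. The TSSs of all annotated genes gave promoter shares of 5.43% and 56.0% and distances of 27.2 and 0.566 kb. For NKX2, a window of 50 bp on each side gave 4.42% and 0.698% and peaks outside promoters 2.13% in class 5. Apart from fewer peaks under filters, the cause was not tested.

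With intervals of 1 replicate in every list, class 0 held 17482 to 18353 peaks and class 5 19353 to 19810, and the class 0 NKX2 share was 6.43% to 7.79%. Leaving out 1 other list raised class 0 to between 17641 (muscle) and 21195 (kidney). No paired analysis was possible because no result comes from a test: the lists keep intervals of each replicate for matched peaks alone, which gave the values by replicate above. Values were not adjusted for depth, so a peak missing from a list may have been under its calling threshold.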
